A study of Rattus norvegicus with 11 samples.

Results

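The NR4A family comprises 3 orphan nuclear receptors, Nr4a1 (Nur77), Nr4a2 (Nurr1) and Nr4a3 (Nor-1), and all 3 were measured among 14506 genes with a probe set of their own in rat adrenal tissue. The members were taken by gene symbol, and each had 1 probe set, 10899387 for Nr4a1, 10845384 for Nr4a2 and 10868940 for Nr4a3. They were chosen as a family because they differed between lesions and normal glands on these arrays, so their differences between those groups are given as a description, without a test. The lesions were 7 adrenal lesions from rats heterozygous for the p27Kip1 (Cdknb1) mutation, 3 of them aged 21 to 23 months (2 males and 1 female) and 4 aged 13 months (2 males and 2 females). The normal glands were 4 adrenal glands of wild type rats, 2 aged 24 months and 2 aged 12 months, with 1 male and 1 female at each age. All animals shared the strain label Sprague–Dawley white eye/Wistar–Kyoto and were untreated, and each array is labelled as a biological replicate, taken here as a separate animal. The labels do not give the kind of lesion or the share of gland that each piece held. The mutated gene, known as Cdkn1b, codes for an inhibitor of cyclin-dependent kinases, and the mutation is carried throughout the animal.

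NR4A receptors are transcription factors with no known physiological ligand, and their activity is set mainly by how much of them is made. Their genes are switched on within minutes by signals such as cyclic AMP, calcium and growth factors, and the transcripts decay soon after the signal ends. In the adrenal cortex they are induced by corticotropin and angiotensin II and can bind the promoters of steroidogenic genes, while in neurons Nr4a2 is required for the dopaminergic fate. They bind DNA as monomers at the site AAAGGTCA, as dimers, or, in the case of Nr4a1 and Nr4a2, together with the retinoid X receptors.

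The sequences before the start sites of Nr4a1 and Nr4a2 are shown because members of the family are known targets of the cyclic AMP-responsive factor CREB, whose core site is TGACG. They come from the RefSeq promoter table of rat build GRCr8, which matched 2 of the 3 members (Nr4a3 had no entry), and show the 250 bases before the annotated start, 5′ to 3′, with each TGACG on either strand in capitals (CGTCA is the same site on the opposite strand). The first lies at chr7:134259888-134260137 on the plus strand and the second at chr3:62104888-62105137 on the minus strand.
Nr4a1: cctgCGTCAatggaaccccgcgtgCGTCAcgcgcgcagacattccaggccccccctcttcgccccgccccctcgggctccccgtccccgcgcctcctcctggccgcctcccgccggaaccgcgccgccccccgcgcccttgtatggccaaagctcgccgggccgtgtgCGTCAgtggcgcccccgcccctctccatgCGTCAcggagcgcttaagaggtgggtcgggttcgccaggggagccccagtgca
Nr4a2: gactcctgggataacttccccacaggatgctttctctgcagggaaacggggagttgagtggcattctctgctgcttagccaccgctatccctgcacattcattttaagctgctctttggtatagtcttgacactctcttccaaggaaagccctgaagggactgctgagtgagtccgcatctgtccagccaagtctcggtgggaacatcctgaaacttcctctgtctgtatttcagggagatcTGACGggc
Nr4a1 held 4 matches, at 246, 226, 82 and 53 bases before its start, and Nr4a2 held 1, at 8 bases before its start. A match to TGACG occurred in 18.2% of the 33469 windows of this length in the table. Neither member held the full palindrome TGACGTCA (1.59% of windows), which contains TGACG, or the receptors' own site AAAGGTCA (1.24%). Which start the adrenal gland uses was not analysed here, and a match is a description of the letters in this window.

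Expression is given on the log2 scale, per probe set, in the authors' deposited values, and each of 5 comparisons covered 29214 probe sets. The medians of the arrays ranged from 4.91 to 5.01, and correlations between pairs of arrays from 0.960 to 0.992. Both parts of the gland were present on every array: the 6 of 7 measured markers of the adrenal cortex averaged 10.5 to 12.1 in lesions and 11.5 to 11.7 in normal glands, and the 8 of 10 measured markers of chromaffin cells, which make catecholamines, averaged 9.41 to 10.9 and 9.85 to 10.2. Lesion 1 stood apart, with the lowest cortical average (10.5, others 11.7 to 12.1) and the highest chromaffin average (10.9, others 9.41 to 10.3). Results that rest on it are given with and without it. Of the other marker lists, granulocyte genes (6 of 6 measured) averaged 4.24 to 5.38 in lesions and 4.10 to 4.43 in normal glands, with 1 of 6 at an unadjusted p under 0.05. Adipocyte genes (6 of 6) averaged 4.69 to 6.39 and 4.72 to 5.65. Lists for endothelium, macrophages, lymphocytes, fibroblasts and Schwann cells also overlapped between groups. No marker list had a member called, and the part of cell makeup in the results below was not tested.

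Nr4a2, the member best known from dopaminergic neurons, showed the widest separation of the family. Its log2 level in the normal glands was 10.06, 9.05, 10.54 and 10.96 in replicates 1 to 4, a mean of 10.15 ± 0.82 (SD, n = 4). In the lesions it ran from 6.31 in lesion 4 through a median of 6.97 to 7.39 in lesion 1, a mean of 6.95 ± 0.41 (SD, n = 7). All 7 lesions thus lay below all 4 normal glands, with an empty gap of 1.65 between the highest lesion and the lowest normal gland. The difference of the means was -3.21, a 9.24-fold lower geometric mean, and it was the most negative difference of all 29214 probe sets. The levels in lesions were still above the median of each array. In whole tissue, fewer cells that carry a transcript and less of it per cell cannot be told apart.

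Nr4a1, which is induced by corticotropin in cortical cells, was separated by a far narrower margin and varied more among lesions than among normal glands. Its log2 level was 9.94, 9.35, 10.34 and 10.55 in normal glands 1 to 4, a mean of 10.04 ± 0.53 (SD, n = 4). Lesions 1 to 4 stood at 7.43, 7.23, 7.62 and 7.72, and lesions 5 to 7 at 8.87, 9.09 and 9.19, which gives a mean of 8.16 ± 0.85 (SD, n = 7). The lesions therefore fell into a low run and a high run with no value between 7.72 and 8.87. The highest lesion lay 0.157 below the lowest normal gland, so the groups did not overlap. The difference of the means was -1.88, or 3.68-fold.

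Nr4a3, the third member, overlapped between groups because of 1 normal gland. It stood at 9.62, 7.60, 9.68 and 10.32 in normal glands 1 to 4, a mean of 9.30 ± 1.18 (SD, n = 4). In lesions it ran from 6.83 in lesion 5 through a median of 7.50 to 8.29 in lesion 1, a mean of 7.50 ± 0.44 (SD, n = 7). Normal gland 2, from a male of 24 months, lay within the lesions, below lesions 1 and 4, while the other 3 normal glands lay above every lesion. The difference of the means was -1.80, or 3.48-fold. Without normal gland 2 it was -2.37. Normal gland 2 was also the lowest normal gland for Nr4a1 and Nr4a2. For 0.695% of all probe sets every lesion was below every normal gland, a description that the choice of the family had already used for its members.

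**Figure D1:**
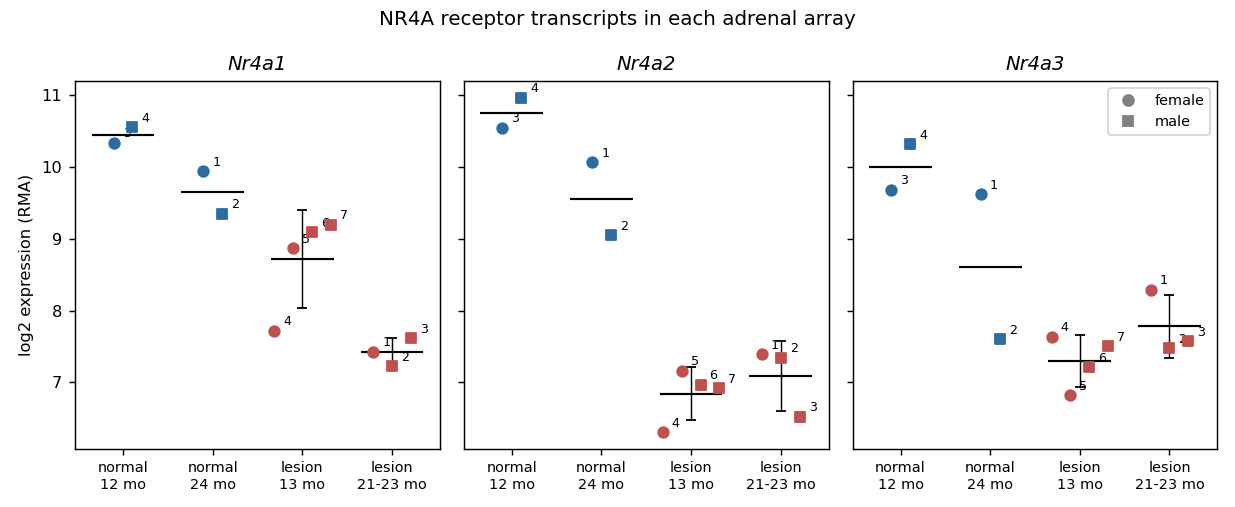
Log2 expression (RMA) of Nr4a1, Nr4a2 and Nr4a3 on the vertical axis in each of the 11 arrays, grouped on the horizontal axis by tissue and age in months. Points are single arrays with their replicate number (circles female, squares male), horizontal lines are means and error bars the SD where a group holds more than 2 arrays. Nr4a2 leaves a gap of 1.65 between lesions and normal glands, lesions 5 to 7 are high for Nr4a1 at 8.87 to 9.19, and normal gland 2 is at 7.60 for Nr4a3.

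Ordered by level over the 4 combinations of tissue and age, each member was highest in normal glands of 12 months and next in normal glands of 24 months, but the lesions followed in different orders. For Nr4a1 the means were 10.44, 9.64, 8.72 in lesions of 13 months and 7.43 in lesions of 21 to 23 months, and no neighbours in that order overlapped. For Nr4a2 they were 10.75, 9.55, 7.09 in older lesions and 6.84 in younger lesions, and the ranges of the lesions of both ages overlapped. For Nr4a3 the younger normal glands stood at 9.68 and 10.32, and the means that followed were 8.61 in older normal glands, 7.78 in older lesions and 7.30 in younger lesions, with overlap between older normal glands and older lesions and between the lesions of both ages. Taken separately by age, the difference of lesions minus normal glands at 12 to 13 months was -1.73 for Nr4a1, -3.91 for Nr4a2 and -2.70 for Nr4a3. At 21 to 24 months it was -2.22, -2.47 and -0.83.

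Age and sex were not used to choose the members and were tested over all probe sets with limma, where the precision rests on few arrays. Nr4a1 was lower in all 3 older lesions (7.23 to 7.62) than in all 4 younger lesions (7.72 to 9.19), a difference of -1.29 (SE 0.32, 95% CI -2.003 to -0.581) that did not pass (limma adjusted p = 0.314, from 0.0581 without lesion 4 to 0.982 over its 20 alternatives). The highest of these came with the replicate number as a block, where the difference turned to 0.112. Lesions 5 to 7 share their number with no normal gland, and lesions 1 and 2 share theirs only with older normal glands. The 0.112 thus rests on lesion 3 against lesion 4, each set against the normal gland of its own number. Of all probe sets, 4.55% had all older lesions below all younger ones, and 0.0103% were called in this comparison, with 9.6% at an unadjusted p under 0.05. Nr4a2 differed by 0.25 (95% CI -0.43 to 0.92, limma adjusted p = 0.835) and Nr4a3 by 0.49 (95% CI -0.46 to 1.43, limma adjusted p = 0.752) between older and younger lesions. Of the 3 members, 0 passed. All 9 measured core steroidogenic genes were below 0 in older against younger lesions (median -0.66, against -0.007 over all genes, 0 called). Lesion 1 was the lowest of the 7 lesions for each of them. Of 8 measured chromaffin markers, 1 was below 0 in the same comparison (median 0.54). By limma 0 of the 8 were called and 4 had an unadjusted p under 0.05. The part of cell makeup in the age difference of Nr4a1 was not tested.

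In normal glands all 3 members were lower at 24 than at 12 months, by -0.80 for Nr4a1 (95% CI -1.73 to 0.13), -1.20 for Nr4a2 (95% CI -2.08 to -0.31) and -1.39 for Nr4a3 (95% CI -2.63 to -0.15), and none was called (limma adjusted p = 1 for each). No probe set was called in this comparison of 2 against 2 glands, and 839, or 2.87%, had an unadjusted p under 0.05. Of 12 measured clock genes, 0 were called between the same glands by limma and 5 had an unadjusted p under 0.05. Bmal1, a core activator of the circadian clock, was 6.13 and 5.68 in the older pair against 7.61 and 7.25 in the younger pair. Dbp, which oscillates in the opposite phase, was 9.12 and 9.73 in the older pair against 7.67 and 7.73 in the younger. In lesions, Bmal1 was lowest in lesions 6 and 7 (5.68 and 5.81, others 7.25 to 7.67), which had the highest Nr4a1 levels. Lesion 5, also high for Nr4a1 at 8.87, had Bmal1 at 7.28. In normal glands the older pair, lower for Bmal1, was also lower for Nr4a1. The part of clock phase in these results was not tested. The difference of older minus younger in lesions exceeded that in normal glands by 1.44 for Nr4a2 (95% CI 0.33 to 2.56) and 1.88 for Nr4a3 (95% CI 0.32 to 3.44), and differed by -0.49 for Nr4a1 (95% CI -1.66 to 0.68). None of these passed (limma adjusted p = 1.00 for each), and 0 probe sets were called with 826, or 2.83%, at an unadjusted p under 0.05. Between males and females, with group in the model, the differences were 0.10 for Nr4a1 (95% CI -0.82 to 1.03), -0.12 for Nr4a2 (95% CI -0.83 to 0.59) and -0.34 for Nr4a3 (95% CI -1.26 to 0.57), with 0 probe sets called by limma and 1154, or 3.95%, at an unadjusted p under 0.05.

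Among the 7 lesions the 3 receptors did not rise and fall together. The correlation was -0.02 between Nr4a1 and Nr4a2 (Spearman's rho -0.43, exact permutation p = 0.955 and p = 0.354), -0.62 between Nr4a1 and Nr4a3 (rho -0.39, exact permutation p = 0.141 and p = 0.396) and 0.07 between Nr4a2 and Nr4a3 (rho -0.14, exact permutation p = 0.892 and p = 0.783). None passed over the 3 pairs (adjusted p from 0.424 for r and 0.593 for rho). Without lesion 1 the 3 values of r were 0.20, -0.55 and -0.57, and without the 2 lesions farthest from the median of the first-named gene they were -0.02, -0.76 and 0.50. Lesion 1 was the highest lesion for Nr4a2 and Nr4a3 and among the lowest for Nr4a1. In the 4 normal glands, too few for a correlation, all 3 members had the same order, with gland 2 lowest, then glands 1, 3 and 4. Most of the spread within groups came from lesions for Nr4a1 (83.8% of its squared deviations from the group means) and from normal glands for Nr4a2 (67.1%) and Nr4a3 (78.0%). These are shares of sums over 7 lesions and 4 normal glands, so an equal spread would already place the larger share in lesions.

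The gene whose levels followed the family most closely over the 11 arrays was Plekhf1, a phosphoinositide-binding protein of endosomes, with a Pearson correlation of 0.983 to the mean of the 3 standardised members and 0.991 to Nr4a2 alone. Plekhf1 stood at 6.84, 6.22, 7.05 and 7.18 in normal glands 1 to 4 and at 5.24 to 5.65 in lesions, so it shared with the receptors both the separation of groups and the low value of normal gland 2. Next were Mepce (0.962), which caps the 7SK RNA, Sik1 (0.949), a cyclic AMP-inducible kinase that restrains CREB coactivators, and Rgs2 (0.940), which restrains G-protein signalling. Id3 (0.925), Klhl40 (0.921), Fosl2 (0.919), Junb (0.913), Per1 (0.912) and Ppp1r15a (0.912) completed the first 10. In all, 14 of 14503 other genes reached 0.9 and 64 reached 0.8. For Nr4a1 alone the closest genes were Slc25a25 (0.952), a mitochondrial ATP-magnesium carrier, Per1 (0.919) and Capn5 (0.913). Slc25a25 shared the high run of lesions 5 to 7, at 6.44 to 6.47 against 5.05 to 5.71 in lesions 1 to 4. For Nr4a3 they were Nrp1 (0.943), Mepce (0.934) and Cwc25 (0.920). Because the groups differ for the members, a high value here partly restates that difference.

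Once each gene was set against its group means, the closest genes were Mthfs (0.931), Plekhf1 (0.930), Mapk6 (0.929), Ing4 (0.920), Lrrc1 (0.915) and the citrate lyase Acly (0.913), followed by Mepce (0.912), Sik1 (0.897), Nelfb (0.888) and Lrrc28 (0.887). Of the first list, Plekhf1, Mepce and Sik1 therefore stood among the first 10 on both measures. Mthfs overlapped between lesions (7.37 to 7.88) and normal glands (7.34 to 8.18), and it shared with the members the low value of normal gland 2 and the high value of gland 4. These values describe 11 arrays from which 2 means were removed. The 4 normal glands gave 77.2% of the squared deviations of Plekhf1 and 44.7% of those of Sik1. For Nr4a1, Nr4a2 and Nr4a3 they gave 16.2%, 67.1% and 78.0%. The value for Plekhf1 therefore rests largely on the order of those 4 glands. Taking each member alone on this measure, the closest genes were Rybp (0.966), Gpi (0.939) and Alas1 (0.933) for Nr4a1, Cited1 (0.945), Lrrc1 (0.941) and Plekhf1 (0.928) for Nr4a2, and Sesn3 (0.942), Cwc25 (0.933) and Pip5k1a (0.912) for Nr4a3. Of the 17 genes closest to the family mean on either measure, all with an entry in the promoter table, 9 held TGACG in the 250 bases before a start and 2 of them, Plekhf1 and Ppp1r15a, the full TGACGTCA, where 20.0% and 1.78% of all 27457 genes in the table did. Of the same 17, 1 (Mthfs) held AAAGGTCA, a site found for 1.3% of genes in the table.

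**Figure D2:**
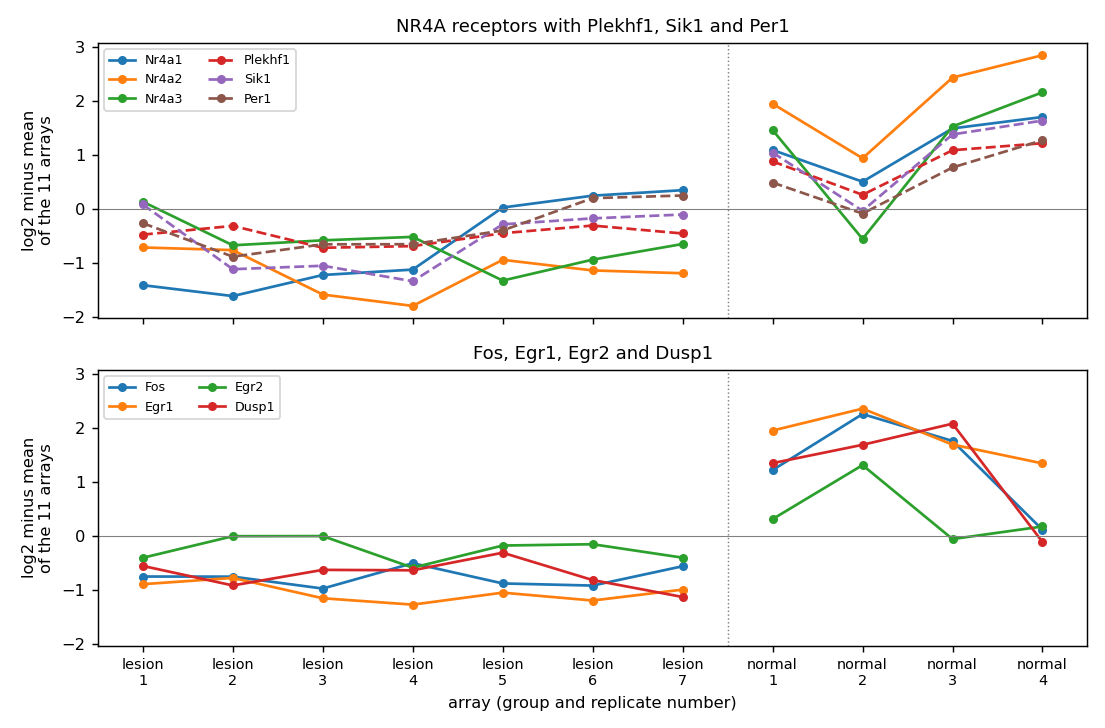
Log2 expression minus each gene's mean of the 11 arrays (vertical axis) for each array (horizontal axis, group and replicate number), with lines joining the points of 1 gene only to help the eye. In the upper panel Nr4a1, Nr4a2, Nr4a3, Plekhf1, Sik1 and Per1 share a low normal gland 2 and a high normal gland 4. In the lower panel Fos and Egr1 are highest in normal gland 2, at 7.94 and 10.70, and lowest among normal glands in gland 4, at 5.80 and 9.68.

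The immediate early response comprises the transcripts switched on first after a stimulus, and some of its genes were among those called lower in lesions. Of 24 measured genes of 26 in that list, apart from the receptors, 5 fell, 0 rose and 19 did not pass (limma, 0.065% of all probe sets called, all lower). The 5 were Egr1, Klf4, Fos, Junb and Atf3. In 8 of the 24 all lesions lay below all normal glands, against 0.695% of all probe sets, and 20 of 24 lay below 0 (median -0.54, against -0.003 over all genes). Egr1, a zinc-finger factor, ran from 7.07 through a median of 7.29 to 7.56 in lesions and stood at 10.29, 10.70, 10.03 and 9.68 in normal glands 1 to 4 (difference -2.89, SE 0.17, limma adjusted p = 2.33e-05). Fos, an AP-1 subunit, ran from 4.71 through 4.93 to 5.18 in lesions and stood at 6.90, 7.94, 7.44 and 5.80 in normal glands 1 to 4 (difference -2.10, SE 0.31, limma adjusted p = 0.0307, called under 11 of 23 alternatives). Klf4, a Krüppel-like factor of differentiation, stood at 7.39, 6.81, 7.99 and 7.78 in normal glands 1 to 4 and at 4.55 to 5.72 in lesions (difference -2.31, SE 0.27, limma adjusted p = 0.00866). Junb, an AP-1 subunit, stood at 8.14, 7.13, 8.48 and 7.61 in normal glands and at 5.28 to 6.45 in lesions (difference -1.98, SE 0.27, limma adjusted p = 0.0167). Both shared the low normal gland 2 with the receptors. Egr1 was called under 22, Atf3 under 20, Klf4 under 19 and Junb under 15 of the 23 alternatives. Dusp1, a phosphatase of MAP kinases, had 6.47 to 7.29 in lesions and 8.96, 9.29, 9.69 and 7.49 in normal glands, and did not pass (difference -1.97, limma adjusted p = 0.0729, called under 5 of 23 alternatives). Fos and Egr1 were both highest in normal gland 2 and lowest in normal gland 4, where the 3 receptors were lowest and highest. Relative to the group means, the correlation with the mean of the members was -0.72 for Fos, -0.70 for Egr1 and -0.77 for Egr2 over the 11 arrays, and 0.81 for Fosl2, which had the receptors' order in the normal glands (10.09, 9.62, 10.21 and 10.82 in glands 1 to 4). The 4 normal glands gave 93.0%, 75.0% and 78.6% of the squared deviations of Fos, Egr1 and Egr2, and 43.2% of those of Fosl2. The 3 negative values therefore rest largely on the order of those 4 glands. The count of 5 stayed 5 without lesion 1 and was 2 without normal gland 3, 3 without normal gland 1, lesion 3 or lesion 7, 0 among arrays of 21 to 24 months, 1 among arrays of 12 to 13 months and 1 with the replicate number as a block.

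Of the cyclic AMP-induced list, 12 of 13 genes were measured, and 1 fell, 0 rose and 11 did not pass, against 0.065% of all probe sets called. The 1 call was lost among arrays of 21 to 24 months and among those of 12 to 13 months. The gene that fell was Rgs2, at 6.75 to 8.26 in lesions (median 7.60) and 11.13, 10.20, 10.85 and 10.77 in normal glands 1 to 4 (difference -3.21, SE 0.27, limma adjusted p = 0.000664). Sik1 stood at 6.49 to 7.91 in lesions (median 7.54) and at 8.87, 7.79, 9.21 and 9.47 in normal glands (difference -1.58, 95% CI -2.34 to -0.81, limma adjusted p = 0.258). Its groups overlapped only where normal gland 2 lay below lesion 1, a pair that also overlapped for Nr4a3. Per1, a clock gene that is also induced by cyclic AMP, differed by -0.96 (95% CI -1.54 to -0.37, limma adjusted p = 0.298), and Gem by -0.78 (95% CI -1.56 to 0.00). The list's median was -0.63, with 10 of 12 below 0 and 3 without overlap (Rgs2, Ppargc1a and Ptgs2), as in 0.695% of all probe sets. Ppargc1a had 3.67 to 4.65 in lesions and 4.86 to 5.07 in normal glands, and Ptgs2 3.61 to 4.36 and 4.48 to 5.28. These levels lay near or below the array medians of 4.91 to 5.01. In older against younger normal glands 11 of the 12 were below 0 (median -0.63). By limma 0 were called, while 3 had an unadjusted p under 0.05, where 2.87% of all probe sets did. Of the 11 genes of this list in the promoter table, which had 18 entries there, 8 held TGACG before at least 1 start and 3 held TGACGTCA. Of all 27457 genes in the table, 20.0% and 1.78% did. The immediate early list had 15 genes in the table, of which 9 held TGACG and 4 held TGACGTCA. Sik1, Rgs2 and Per1 of the cyclic AMP-induced list were also among the genes closest to the family mean, as were Fosl2 and Junb. The promoter counts of these sets therefore share genes, and the windows were not matched for base composition.

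**Figure D3:**
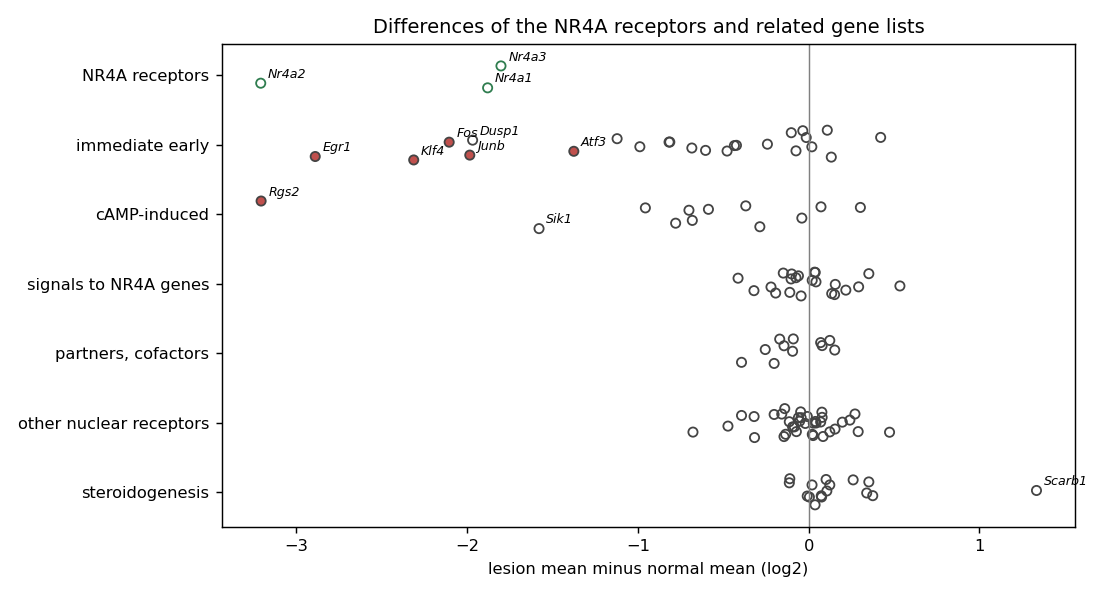
Lesion mean minus normal mean on the log2 scale (horizontal axis) for each measured gene of the NR4A family and 6 lists (vertical axis, points spread at random within a row). Filled points passed the test over all probe sets, and the NR4A members are outlined in green and carry no test. Nr4a2 at -3.21 lies beside Rgs2 at -3.21, and the lists of signals, partners, other nuclear receptors and steroidogenic genes lie around 0 except Scarb1 at 1.33.

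The genes that carry the signal to the NR4A promoters did not pass in either direction. Of 22 measured of 26, among them hormone receptors, protein kinase A subunits, CREB and its coactivators and the MEF2 and SRF factors, 0 were called by limma and 2 had an unadjusted p under 0.05, against 7.71% of all probe sets (median -0.01). Those 2 were Prkacb, a catalytic subunit of protein kinase A (0.53, 95% CI 0.17 to 0.90, limma adjusted p = 0.395), and Ep300, a histone acetyltransferase (-0.32, 95% CI -0.53 to -0.11, limma adjusted p = 0.341). Mc2r, the corticotropin receptor, differed by -0.11 (95% CI -1.07 to 0.85), its accessory protein Mrap by 0.35 (95% CI -0.65 to 1.35), the angiotensin receptor Agtr1b by -0.41 (95% CI -1.03 to 0.20) and Creb1 by 0.16 (95% CI -0.13 to 0.44). Without lesion 1, which stood at 8.31 for Mc2r against 10.28 to 11.11 in the other lesions, the Mc2r ranges still overlapped (normal glands 10.26 to 10.68).

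Proteins that pair with NR4A receptors or modify their activity, and the rest of the nuclear receptor superfamily, likewise gave no call. Of 11 measured partners and cofactors of 14, 0 were called and 0 had an unadjusted p under 0.05 by limma. Rxra, a dimer partner of Nr4a1 and Nr4a2, differed by -0.14 (95% CI -0.51 to 0.22), the coactivator Ncoa2 by -0.25 (95% CI -0.53 to 0.03) and the glucocorticoid receptor Nr3c1, which can repress NR4A activity, by -0.20 (95% CI -0.81 to 0.40). Nr0b2, a receptor without a DNA-binding domain, varied from 4.20 to 8.47 among lesions and from 6.42 to 7.12 among normal glands. Of 36 measured other nuclear receptors of 45, which include 7 of these partners, 0 were called by limma and 2 had an unadjusted p under 0.05, against 7.71% of all probe sets (median -0.03). The largest differences were -0.68 for the oestrogen receptor Esr1 (95% CI -1.25 to -0.11, limma adjusted p = 0.549), 0.47 for Ppard (95% CI -0.03 to 0.98) and -0.47 for the mineralocorticoid receptor Nr3c2 (95% CI -0.99 to 0.05).

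Steroidogenic genes did not follow the receptors between groups. Of 16 measured genes of 19, 0 were called by limma, 1 had an unadjusted p under 0.05, against 7.71% of all probe sets, and 3 lay below 0 (median 0.09). Their mean log2 level was 8.90 to 9.29 in normal glands and 8.20 to 9.64 in lesions, or 9.23 to 9.64 without lesion 1. Star, the mitochondrial cholesterol transfer protein, differed by 0.07 (95% CI -0.23 to 0.38), Cyp11a1, which makes the first steroid, by -0.01 (95% CI -0.43 to 0.42), Cyp11b1, the 11-beta-hydroxylase, by 0.08 (95% CI -0.53 to 0.68), and the aldosterone synthase Cyp11b2 by 0.00 (95% CI -0.94 to 0.95). Cyp21a1, the steroid 21-hydroxylase, differed by 0.38 (95% CI -0.33 to 1.08) and Hsd3b2 by 0.26 (95% CI -0.48 to 1.00). The exception in size was Scarb1, the receptor for high-density lipoprotein cholesterol, at 10.37 to 12.22 in lesions and 9.84 to 10.89 in normal glands (difference 1.33, 95% CI 0.64 to 2.03, limma adjusted p = 0.258). Without lesion 1 the list had 1 gene called higher. The lowest of the other lesions then stood at 11.548 for Scarb1, 5.949 for Hsd3b2, 11.891 for Cyp21a1 and 12.163 for Fdx1. The highest normal gland was at 10.891, 5.924, 11.886 and 12.156. These ranges thus no longer overlapped, by a narrow margin except for Scarb1. The ranges of Star, Cyp11a1, Cyp11b1, Cyp11b2 and Mc2r still overlapped without lesion 1. Of 11 measured genes reported as NR4A targets, which share 5 genes with the steroidogenic list and include Th and Ret, 0 were called by limma, 0 had an unadjusted p under 0.05 and the median was 0.04. The vesicular monoamine transporter Slc18a2 differed by 0.57 (95% CI -0.87 to 2.01) and the receptor tyrosine kinase Ret by 0.52 (95% CI -0.72 to 1.76), and both were highest in lesion 1, at 9.54 and 8.32, where the other lesions reached 7.90 and 5.38. Th, which starts the synthesis of catecholamines from tyrosine, was apart by -0.01 (95% CI -0.38 to 0.37). Among the 5 core steroidogenic genes with an entry in the promoter table, the NR4A site AAAGGTCA was found before the start of 1, Cyp21a1, and for 1.3% of all genes in the table.

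Within the 7 lesions each member was set against the mean of the 16 steroidogenic genes and against 9 core genes, 30 relations in all, and none passed after adjustment. Against the mean level, Nr4a1 had r = 0.47 (rho 0.54, exact permutation p = 0.284 and p = 0.236), Nr4a2 r = -0.60 (rho -0.75, exact permutation p = 0.143 and p = 0.0663) and Nr4a3 r = -0.77 (rho -0.18, exact permutation p = 0.0700 and p = 0.713), with adjusted p for r of 0.405, 0.305 and 0.228. Without lesions 1 and 4, the 2 farthest from the median steroidogenic level, r was 0.77, -0.25 and -0.49, and without lesion 1 alone it was 0.41, -0.55 and -0.12. On deviations from the means of each age class it was -0.10, -0.54 and -0.64, so the direction for Nr4a1 turned. The relation of Nr4a3 to the mean level therefore rested largely on lesion 1, which had the highest Nr4a3 level (8.29) and the lowest steroidogenic level (8.20) of the lesions. By r the largest single relations were those of Nr4a3 with Cyp11b1 (-0.848), Cyp21a1 (-0.845), Star (-0.84), Cyp11a1 (-0.836) and Scarb1 (-0.808). Their adjusted p by exact permutation was 0.137, and 0.191 for Scarb1. Without lesion 1 their r was -0.60, -0.56, -0.51, -0.58 and -0.37. The strongest single relations by rank were those of Nr4a2 with Cyp11b2 and of Nr4a1 with Star. Nr4a2 ran against Cyp11b2 (r = -0.80, rho -0.96, exact permutation p = 0.0163 and p = 0.00278, adjusted p = 0.137 and p = 0.0833), with r = -0.95 without lesion 1 -0.92 without lesions 1 and 4, and -0.79 on deviations from the means of each age class. Nr4a1 ran with Star (r = 0.64, rho 0.93, exact permutation p = 0.0468 and p = 0.00675, adjusted p = 0.191 and p = 0.101), with r = 0.94 without lesion 1 and 0.97 without lesions 1 and 2, but r = 0.22 on deviations from the means of each age class. Since Nr4a1 forms a low and a high run among lesions, its r mostly sets those runs apart. In the 4 normal glands Nr4a2 was 10.06, 9.05, 10.54 and 10.96 beside Cyp11b2 levels of 7.01, 6.88, 7.89 and 8.41, the same order for both, which is too few arrays for a test.

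**Figure D4:**
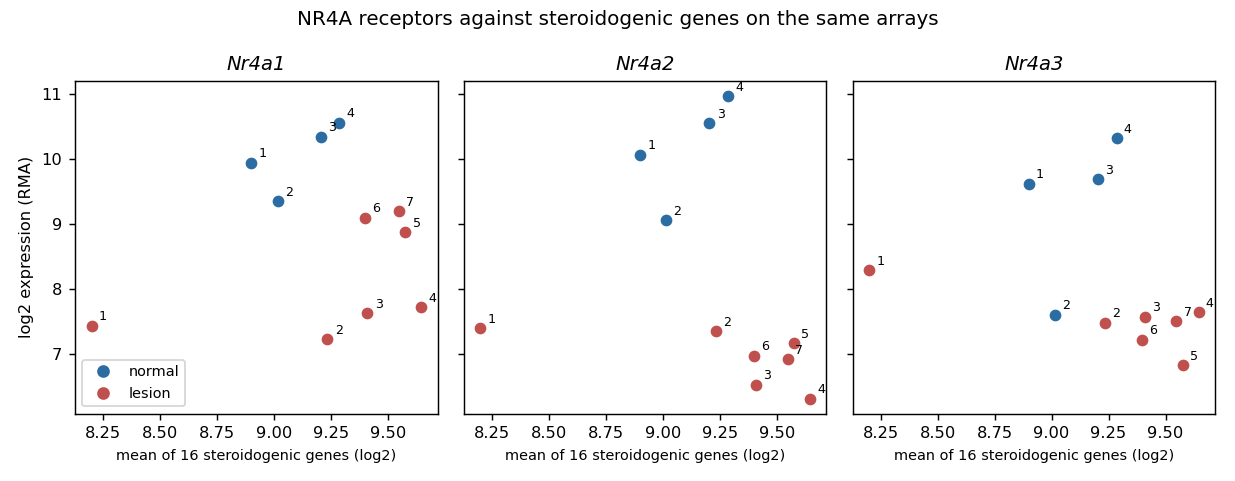
Log2 expression of each NR4A member (vertical axis) against the mean log2 level of 16 steroidogenic genes on the same array (horizontal axis), 1 point per array with its replicate number, lesions in red and normal glands in blue. At steroidogenic levels of 9.20 to 9.64, normal glands 3 and 4 and lesions 2 to 7 are covered together, while Nr4a2 stands at 10.54 and 10.96 in the former and at 6.31 to 7.35 in the latter, and lesion 1 lies alone at 8.20.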

How the data were processed

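RNA of 11 adrenal samples was amplified and biotin-labelled for arrays, as the labels' protocols state. Values are on a log2 scale as the authors deposited them. Per the submitters' processing notes they used RMA and Affymetrix Expression Console 1.3.0.187. Nothing was normalized again, and scanner intensities were not used here. In the platform annotation, 15310 of the 29214 probe sets carry exactly 1 symbol, and each of 14506 genes was represented by its probe set of highest mean. Contrasts were fitted in limma 3.58.1 under R 4.3.3 with two-sided p-values, which were adjusted by the Benjamini-Hochberg method across the 29214 probe sets, and a call means an adjusted p under 0.05. Age used means of group by age class, and sex a model with group. The fits were tested on simulated data. Correlations within lesions used exact two-sided permutation of 5040 orders (smallest p 0.000397). The members and lists were chosen with earlier results of these data known. Named genes were the members, up to 4 genes per list with the largest difference, the core steroidogenic genes and the 10 genes most like the family on each measure. Fos, Egr1 and Egr2 among normal glands, the promoter search and the pairs of members were chosen after values were seen. The number of arrays limits the precision. Alternatives covered normalization, dim probe sets, moderation, array weights, age, sex, the replicate block and each array left out.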

Additional observations from a re-analysis of the deposited data

Results flagged for a closer look

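A single array far from the rest of its group was looked for in the 3 members, the 9 core steroidogenic genes and the mean steroidogenic level, 26 groups in all, where chance singles out an array in about 5% of groups. None of the 3 members had such an array in either group. Lesion 1 lay far below the other lesions for Star (11.78, next 12.33), Cyp11a1 (11.32, next 12.30), Hsd3b2 (4.521, next 5.949), Cyp21a1 (10.41, next 11.89), Cyp11b1 (9.723, next 11.04), Fdx1 (11.72, next 12.16), Scarb1 (10.37, next 11.55) and Mc2r (8.312, next 10.28), and for the mean steroidogenic level (8.199, next 9.234). These 9 results concern 1 array and are not independent of each other. Normal gland 2 was the highest normal gland for Star (12.35, next 12.32), where the other 3 glands lay within 12.31 to 12.32.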

How the results depend on the processing

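The difference between lesions and normal glands kept its sign for all 3 members under all 23 alternatives run, and Nr4a1 moved by less than its spread between arrays. It moved further for Nr4a2 (-2.467 at 21 to 24 months and -3.912 at 12 to 13 months) and Nr4a3 (-0.8275 and -2.705), and leaving out 1 array gave -2.11 to -1.71, -3.575 to -2.938 and -2.369 to -1.463 for Nr4a1, Nr4a2 and Nr4a3. No member had a second probe set to try. Of all probe sets, 19 were called between lesions and normal glands, 30 without dim probe sets, 31 with array weights, 29 with age class and sex added, 0 at 21 to 24 months, 5 at 12 to 13 months and 5 to 28 without 1 array. The 5 immediate early genes became 0 at 21 to 24 months, 1 at 12 to 13 months and 2 to 6 without 1 array, and the 1 cyclic AMP-induced gene became 0 at either age, with fewer arrays in each fit. Between older and younger lesions 3 probe sets were called, 1 in lesions alone and 1 to 39 without 1 array. Without 1 array the count was 0 to 1 for age in normal glands and for the interaction, where an arm left with 1 gland is taken to vary like the others. The sex difference of Nr4a1 was -0.0896 with array weights and -0.0916 to 0.324 without 1 array, that of Nr4a2 -0.365 to 0.170 and that of Nr4a3 -0.676 to 0.0854. A lesion and a normal gland of the same number came from different animals, heterozygous and wild type. The labels do not say that a replicate number marks a batch, and the numbers were taken as numbers only, since the deviations of 1 of the 4 same-numbered pairs correlated under 0.1 (range 0.073 to 0.209). All 4 were positive and 3 of 4 normal glands matched their own number best. Pairs 1 and 2 each share sex and age class, pair 4 shares age class, and pair 3, with the lowest value, shares neither. A part of the number in this matching cannot be told apart from age and sex. With the replicate number as a block, 3 probe sets and 1 immediate early gene were called between groups. Lesions 5 to 7 share their number with no normal gland, so lesion 4 was the only younger lesion behind the age differences there. Lesion 3 was the only older lesion behind the lesion age difference, since lesions 1 and 2 share their numbers only with older normal glands. In that fit the lesion age difference of Nr4a1 was 0.112 and its interaction 0.516, and the sex differences of Nr4a2 and Nr4a3 were 0.313 and 0.285. The relation of Nr4a1 to the mean steroidogenic level was -0.104 on deviations from age class means. On those deviations Nr4a1 also reversed against Cyp11a1 (-0.031), Hsd3b2 (-0.315), Cyp11b1 (-0.0652), Cyp11b2 (-0.302), Fdx1 (-0.121), Scarb1 (-0.132) and Mc2r (-0.124). Without the 2 lesions farthest in steroidogenic level, reversals were Nr4a1 against Fdx1 (-0.185), Nr4a2 against Cyp11a1 (0.641), Cyp21a1 (0.142), Cyp11b1 (0.0117) and Mc2r (0.0458), and Nr4a3 against Cyp11b2 (0.126, and 0.107 by rank). Without 1 lesion, r ranged from -0.109 to 0.46 for Nr4a1 against Hsd3b2, -0.12 to 0.486 against Cyp11b2 and -0.281 to 0.413 against Fdx1, from -0.543 to 0.443 for Nr4a2 against Cyp11a1 and from -0.763 to 0.411 for Nr4a3 against Cyp11b2. The cause of these changes was not tested.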
